A study of Mus musculus with 12 samples.

Results

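Skeletal muscle genes were examined in RNA of inguinal white adipose tissue (iWAT), the subcutaneous fat pad of the groin. The genes were Acta1, Ckm, Mylpf, Tnnt3, Atp2a1, Ttn, Des and Eno3, 8 genes of the contractile apparatus and of muscle energy supply. They were chosen by their values in these same libraries, where a few libraries had shown high levels, so the levels of these genes are given as a description with no test. Of the 8 genes, 7 were listed among 14159 genes, and Ckm was not analysed here. All 7 passed the filter on low values (an average of 10 or more normalized counts per library), and a muscle gene could pass it through 1 high library.

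From C57BL/6 mice in 4 groups the polyadenylated RNA of iWAT was sequenced, with 3 replicates each, numbered 0, 1 and 2. Atf4WT mice carried floxed Atf4 alleles without Cre (Atf4 fl/fl), and Atf4AKO mice carried the same floxed alleles with Adipoq-Cre. Both genotypes were housed at room temperature (RT) or exposed to cold for 24 h. The Cre acts in cells that express adiponectin, so muscle fibres, immune cells and vessels in the pad keep Atf4, and the age and sex of the animals were not given in the sources used here. The reads on listed genes numbered 25719476 to 29105147 per library.

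Skeletal muscle fibres contract when calcium leaves the sarcoplasmic reticulum, binds troponin on the thin filament and lets myosin heads pull on actin. The pump encoded by Atp2a1 then returns the calcium, and creatine kinase and glycolytic enzymes such as enolase 3 keep ATP available. Adipocytes mainly make other actins and myosins, while some muscle genes are also read in smooth muscle and in thermogenic fat. The inguinal pad lies on the body wall and the upper hind limb, next to skeletal muscle. Because tissue of the pad was sequenced in bulk, fewer cells of a type and less RNA per cell cannot be told apart.

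The promoters of the genes are shown as background, and their part in the levels across libraries was not tested. RefSeq promoters (GRCm38.p6) were at hand for 7 of the 8 genes, all but Tnnt3. In the 250 bases before the start, CANNTG, the core letters of an E-box that myogenic factors such as MyoD can bind, was present in all 7, against 66.2% of 32851 promoters. The form CAGCTG, a subset of CANNTG, was present in 5 (Acta1, Atp2a1, Ckm, Des and Mylpf), against 13% of all promoters. The MEF2 site was found before Ttn (2.92% of promoters), and the CArG box, which serum response factor can bind, before Acta1 (1.47%). Both strands were searched, and capitals mark every match to these motifs. The sequences, 5′ to 3′ on the strand of the gene, come from chr8:123894776-123895025 (minus strand) for Acta1, chr7:127211358-127211607 (plus) for Mylpf, chr7:126463074-126463323 (minus) for Atp2a1, chr2:76982548-76982797 (minus) for Ttn and chr1:75360042-75360291 (plus) for Des.
Acta1: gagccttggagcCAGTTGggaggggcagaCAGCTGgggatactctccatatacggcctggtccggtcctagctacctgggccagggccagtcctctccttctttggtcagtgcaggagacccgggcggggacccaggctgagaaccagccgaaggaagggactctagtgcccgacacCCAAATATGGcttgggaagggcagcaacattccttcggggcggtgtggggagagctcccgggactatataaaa
Mylpf: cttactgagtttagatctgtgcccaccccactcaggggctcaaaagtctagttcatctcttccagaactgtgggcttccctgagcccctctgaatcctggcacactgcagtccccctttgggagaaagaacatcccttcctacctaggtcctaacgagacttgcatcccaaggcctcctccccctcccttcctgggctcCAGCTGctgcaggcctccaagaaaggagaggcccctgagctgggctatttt
Atp2a1: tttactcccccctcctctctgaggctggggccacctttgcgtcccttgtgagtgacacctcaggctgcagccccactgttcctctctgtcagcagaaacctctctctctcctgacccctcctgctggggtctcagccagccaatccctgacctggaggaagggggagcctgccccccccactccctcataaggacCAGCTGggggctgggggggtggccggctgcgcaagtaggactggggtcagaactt
Ttn: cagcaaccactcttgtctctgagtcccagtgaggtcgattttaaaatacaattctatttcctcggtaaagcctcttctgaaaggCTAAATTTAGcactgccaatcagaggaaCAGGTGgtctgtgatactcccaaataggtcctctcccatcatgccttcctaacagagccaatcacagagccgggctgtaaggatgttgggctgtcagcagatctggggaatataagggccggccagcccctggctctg
Des: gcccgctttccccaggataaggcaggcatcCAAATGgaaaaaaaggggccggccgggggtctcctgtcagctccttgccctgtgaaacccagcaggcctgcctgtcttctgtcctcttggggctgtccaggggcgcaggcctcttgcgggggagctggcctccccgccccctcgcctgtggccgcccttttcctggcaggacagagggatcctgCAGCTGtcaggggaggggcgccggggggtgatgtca
Before Acta1 the CArG box lay 73 to 64 bases from the start and the CAGCTG 221 to 216 bases from it. The CAGCTG lay 51 to 46 bases before Mylpf, 55 to 50 bases before Atp2a1 and 36 to 31 bases before Des. These distances count from the RefSeq start of the promoter table, which for Mylpf and Atp2a1 lies inside the gene spans given below, downstream of their first annotated bases. A match of letters is a description and does not show that a factor binds there.

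Atf4, the deleted gene (NM_009716, chr15:80255184-80257541, plus strand), was lower in Atf4AKO iWAT in both conditions. At RT its normalized counts were 5669, 4670 and 4107 in the Atf4WT libraries and 1594, 1470 and 1639 in the Atf4AKO libraries. After cold exposure they were 7644, 7511 and 5756 in Atf4WT and 1578, 788 and 1180 in Atf4AKO. The genotypes did not overlap in either condition, so each library matched its genotype label. The log2 difference was -1.61 at RT (SE 0.22, adjusted p = 0.0762, lower in 3 of 3 libraries) and -2.60 after cold exposure (SE 0.22, adjusted p = 0.000644, lower in 3 of 3 libraries). A normalized count is the reads of a gene divided by the size factor of the library.

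Of the 12 libraries, 3 stood apart in the skeletal muscle genes: Atf4WT RT replicate 2, Atf4WT cold replicate 0 and Atf4AKO cold replicate 1, in falling order. No Atf4AKO RT library was among them. The summed normalized count of the 7 genes was 124865, 43069 and 5983 in these 3 libraries and between 1020 and 2014 in the 9 others. As a share of all counts this was 0.499% (95% Wilson interval 0.496% to 0.502%) in Atf4WT RT replicate 2. It was 0.155% (0.153% to 0.156%) in Atf4WT cold replicate 0 and 0.0205% (0.0199% to 0.0210%) in Atf4AKO cold replicate 1. Among the other libraries the share ran from 0.00377% (0.00355% to 0.00400%) in Atf4AKO RT replicate 0 to 0.00785% (0.00752% to 0.00818%) in Atf4WT cold replicate 2. These intervals cover counting error alone, and unlisted genes such as Ckm are in neither part of the share.

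The contractile genes differed most between libraries. Acta1 (NM_001272041, chr8:123891769-123894751, minus strand) encodes skeletal muscle alpha-actin, the main protein of the thin filament. Its normalized counts were 390, 789 and 35541 in Atf4WT RT, 131, 80.7 and 256 in Atf4AKO RT, 13734, 38.0 and 42.4 in Atf4WT cold and 11.7, 1314 and 21.5 in Atf4AKO cold, each in the order of replicates 0, 1 and 2. The 3 libraries named above were the highest. Below them, every RT library had at least 80.7 and every cold library at most 42.4, in both genotypes. Over the 12 libraries the highest value was 3040 times the lowest.

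Mylpf (NM_001347655, chr7:127208890-127214298, plus strand) encodes the regulatory light chain of fast skeletal myosin. It was at 22.1, 32.7 and 8607 in Atf4WT RT, 28.8, 24.9 and 43.6 in Atf4AKO RT, 59.1 and 82.9 in Atf4WT cold replicates 1 and 2, and 3154 in replicate 0. In Atf4AKO cold it was at 23.4, 294 and 31.2. The 9 libraries outside the 3 high ones lay between 22.1 and 82.9. Atf4WT cold lay above Atf4AKO RT in every library, and each other pair of groups overlapped.

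Tnnt3 (NM_001163665, chr7:142498836-142516009, plus strand), fast skeletal troponin T, which anchors the troponin complex to tropomyosin, had 18.4, 13.5 and 26896 normalized counts in Atf4WT RT and 10.2, 11.0 and 23.2 in Atf4AKO RT. After cold exposure it had 8697, 26.4 and 43.3 in Atf4WT and 25.5, 1070 and 12.9 in Atf4AKO. In the 9 libraries outside the 3 high ones it did not exceed 43.3, and Atf4WT RT replicate 2 was 621 times above that value.

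Atp2a1 (NM_007504, chr7:126445858-126463108, minus strand) encodes SERCA1, the calcium pump of fast fibres. It showed the widest range of the 7 genes, with 10.1, 4.81 and 36066 in Atf4WT RT, 12.1, 15.9 and 34.3 in Atf4AKO RT, 10893, 17.9 and 47.1 in Atf4WT cold and 30.8, 1151 and 8.60 in Atf4AKO cold. The highest value was 7495 times the lowest. The low values rest on a handful of reads, and this fold is accordingly imprecise.

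Ttn (NM_028004, chr2:76703980-76982547, minus strand) encodes titin, the spring that spans the sarcomere. Its normalized counts were 8.27, 9.62 and 8207 in Atf4WT RT, 4.65, 8.96 and 13 in Atf4AKO RT, 2766, 24.3 and 85.7 in Atf4WT cold and 15.9, 303 and 11.8 in Atf4AKO cold. The order of the 3 high libraries was that of the genes above. Atf4WT cold replicate 2 came next, at 85.7.

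The remaining 2 genes had a level in every library. Des (NM_010043, chr1:75360329-75368579, plus strand), the intermediate filament desmin of skeletal, cardiac and smooth muscle, was at 582, 820 and 3750 in Atf4WT RT and 606, 756 and 549 in Atf4AKO RT. After cold exposure Des was at 1868, 1080 and 1233 in Atf4WT and 640, 1317 and 1054 in Atf4AKO. Eno3 (NM_001276285, chr11:70657202-70662513, plus strand), the muscle isoform of the glycolytic enzyme enolase, was at 301, 292 and 5798 in Atf4WT RT and 227, 253 and 444 in Atf4AKO RT. After cold exposure Eno3 was at 1958, 511 and 480 in Atf4WT and 412, 534 and 266 in Atf4AKO. The highest value was 6.83 times the lowest for Des and 25.6 times for Eno3, far less than for the 5 other genes.

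**Figure D1:**
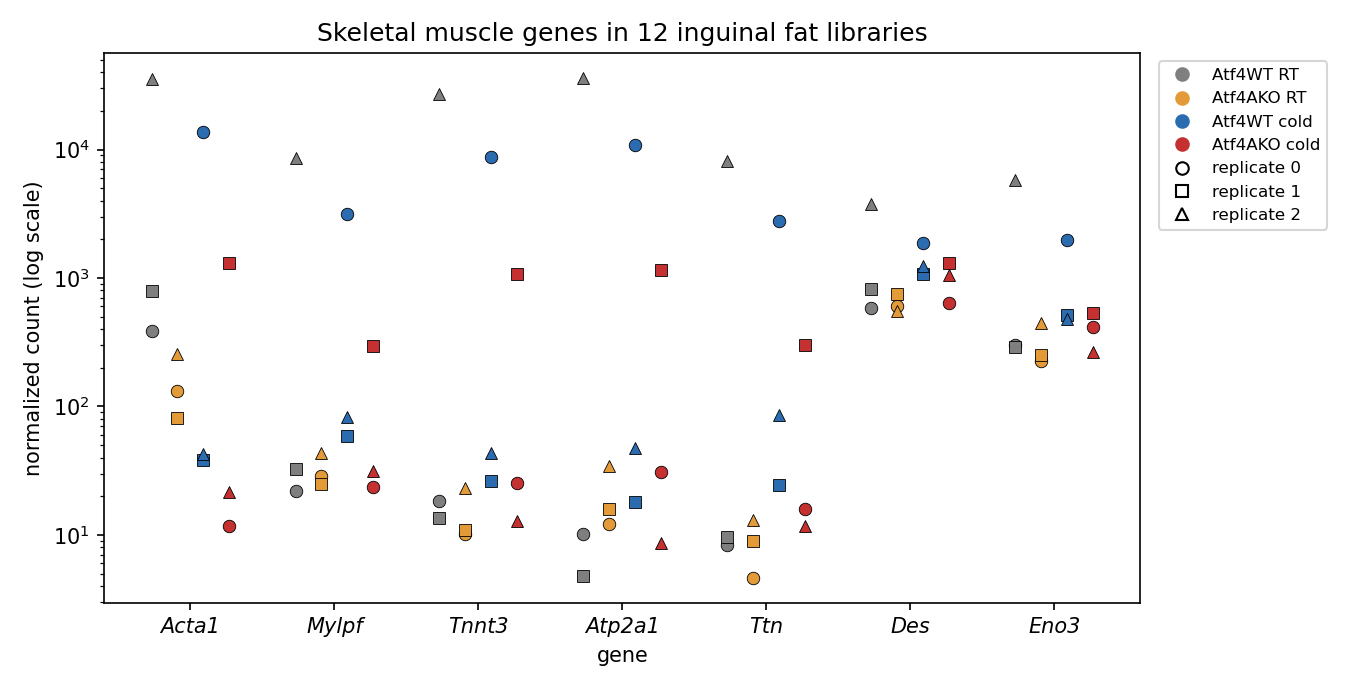
Normalized counts (log scale) of the 7 listed skeletal muscle genes in the 12 iWAT libraries, with groups by color and replicate numbers by symbol. Atf4WT RT replicate 2 (gray triangles) is highest for each gene, followed by Atf4WT cold replicate 0 (blue circles) and Atf4AKO cold replicate 1 (red squares).

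Levels can be compared between genes per kilobase of exon. In Atf4WT RT replicate 2 the normalized count per kilobase was 23139 for Acta1, 16990 for Tnnt3, 10373 for Atp2a1, 8105 for Mylpf, 3334 for Eno3, 999 for Des and 70.3 for Ttn. In the 9 other libraries the order was different. Their median per kilobase was 201 for Des and 173 for Eno3, above 52.5 for Acta1, 29.3 for Mylpf, 11.6 for Tnnt3, 4.58 for Atp2a1 and 0.101 for Ttn. Exon length here is the union of all annotated exons of a gene, 116825 bases for Ttn.

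The 3 high libraries were compared gene by gene to see whether they held the muscle genes in one proportion. Relative to Atf4WT RT replicate 2, Atf4WT cold replicate 0 had 0.302 to 0.498 of the level of each gene (median 0.338). Atf4AKO cold replicate 1 had 0.0319 to 0.351 (median 0.0370), where Des and Eno3, the genes with a level in every library, gave the highest ratios of 0.351 and 0.0921. After subtraction of the mean of the other replicates of the group, the ratios for the 7 genes were 0.233 to 0.392 (median 0.322) and 0.0310 to 0.154 (median 0.0354). With that subtraction the genes other than Des lay between 0.266 (Eno3) and 0.392 (Acta1) in Atf4WT cold replicate 0. In Atf4AKO cold replicate 1 they lay between 0.0310 (Mylpf) and 0.0391 (Tnnt3), with Des apart at 0.154.

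Acta1 relative to Tnnt3 differed between the high and the low libraries. The ratio was 1.32 in Atf4WT RT replicate 2, 1.58 in Atf4WT cold replicate 0 and 1.23 in Atf4AKO cold replicate 1. In the low RT libraries Acta1 was 21.2 and 58.6 times Tnnt3 in Atf4WT and 12.8, 7.36 and 11.0 times in Atf4AKO. In the low cold libraries the ratio was 1.44 and 0.978 in Atf4WT and 0.458 and 1.67 in Atf4AKO. The low RT libraries thus carried Acta1 counts without a matching level of Tnnt3, and the source of these counts was not tested.

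A muscle score, the mean over the 7 genes of log2(normalized count + 1), gave each library 1 value. It was 13.63 in Atf4WT RT replicate 2, 12.16 in Atf4WT cold replicate 0 and 9.50 in Atf4AKO cold replicate 1. In the other 9 libraries it ran from 5.48 (Atf4AKO cold replicate 2) to 6.93 (Atf4WT cold replicate 2). From the highest group to the lowest the score was 8.54 ± 4.41 in Atf4WT RT, 8.46 ± 3.22 in Atf4WT cold, 6.90 ± 2.25 in Atf4AKO cold and 5.87 ± 0.48 in Atf4AKO RT (SD, n = 3 each). Each of the 3 wide SDs came with 1 high library, and each was larger than the gap to the next group in this order. This is a description and no test, since the genes were chosen by these values.

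Single libraries moved the score in each comparison. For Atf4AKO against Atf4WT at RT the difference was -2.67, and -0.13 without Atf4WT RT replicate 2. It was -3.97 or -3.91 without Atf4WT RT replicate 0 or 1. For Atf4AKO against Atf4WT after cold exposure it was -1.55, turned to 0.30 without Atf4WT cold replicate 0 and was -2.85 without Atf4AKO cold replicate 1. Without a low library it was -2.64 (Atf4WT cold replicate 1), -2.32 (Atf4WT cold replicate 2), -0.97 (Atf4AKO cold replicate 0) or -0.84 (Atf4AKO cold replicate 2). For cold against RT in Atf4WT it was -0.08, and it became -1.94 without Atf4WT cold replicate 0 and 2.46 without Atf4WT RT replicate 2. Leaving out a low library moved it as well, to 1.00 or 0.68 without Atf4WT cold replicate 1 or 2 and to -1.39 or -1.33 without Atf4WT RT replicate 0 or 1. For cold against RT in Atf4AKO it was 1.03, and -0.27 without Atf4AKO cold replicate 1, 1.62 without replicate 0 and 1.74 without replicate 2 of that group. Without all 3 high libraries, a choice made after seeing the data, the differences were -0.13, -1.0, 0.61 and -0.27 in the same order.

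**Figure D2:**
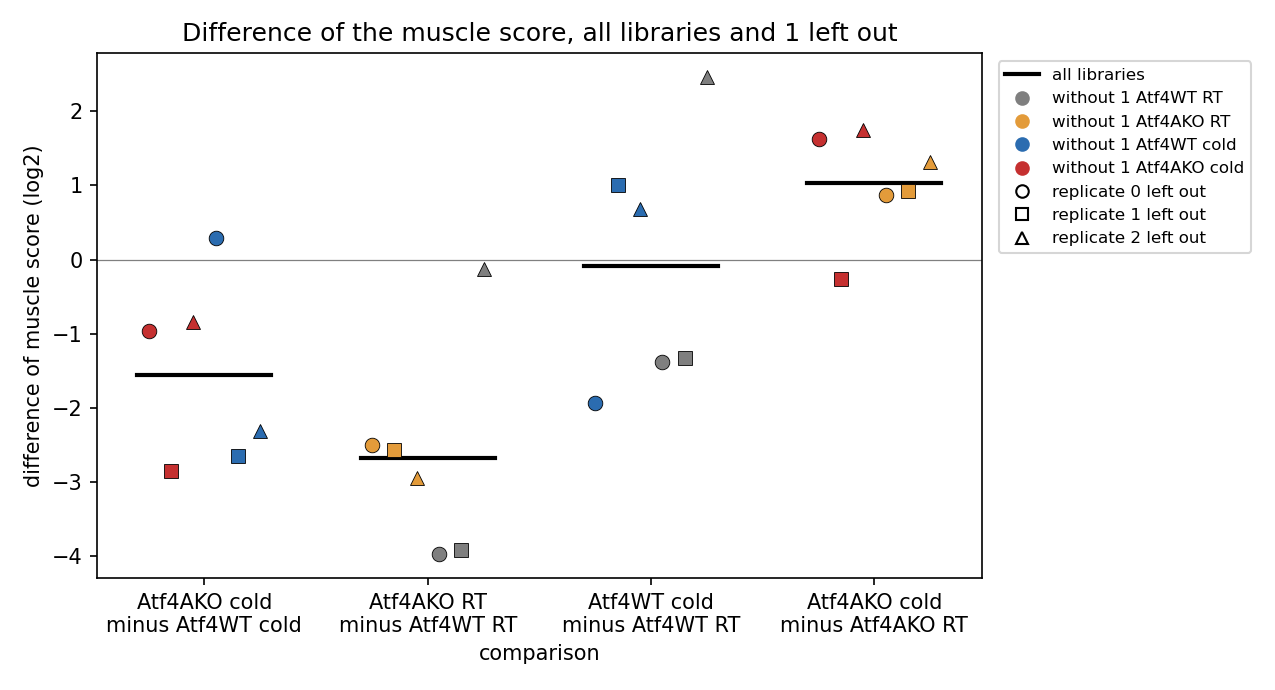
Difference of the muscle score (log2) in each comparison, with all libraries (black lines) and with 1 library left out (points, colored by the group and shaped by the replicate left out). Leaving out Atf4WT RT replicate 2 moved the RT difference between genotypes from -2.67 to -0.13.

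Genes outside the 7 followed the same 3 libraries. Among 13397 tested genes, 34 had a Pearson r above 0.9 with the muscle score over the 12 libraries, and 13 of them were above 0.95. The 12 points are 3 far libraries and 9 close ones, so r mostly describes those 3, and no p is given. The 15 most alike genes were Actn3 (r = 0.992), Neb (0.991), Ryr1 (0.980), Tnni2 (0.976), Pygm (0.976), Casq1 (0.975), Hjv (0.968), Rpl3l (0.967), Tnnc2 (0.964), Eef1a2 (0.958), Txlnb (0.958), Apobec2 (0.955), Cacna1s (0.951), Myom1 (0.947) and Myl1 (0.944). Of these 15, 10 belong to the skeletal muscle lists described below. After subtraction of group means their r was 0.948 to 0.995, and without the 2 libraries farthest from the median it was 0.652 to 0.957.

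Actn3, the alpha-actinin of fast fibres, had 10389 normalized counts in Atf4WT RT replicate 2, 3448 in Atf4WT cold replicate 0 and 382 in Atf4AKO cold replicate 1, and at most 8.44 in the 9 others. Neb, the giant ruler protein nebulin of the thin filament, had 3763, 1329 and 183 in these libraries and at most 69.6 elsewhere. Ryr1, the calcium release channel, had 3470, 1011 and 110, and at most 51.0 elsewhere. Eef1a2, the translation elongation factor isoform of muscle and neurons, was outside the lists and had 1534, 442 and 47.6, against at most 9.62. Apobec2, a deaminase family protein of striated muscle, reached 462 and 114 in the first 2, while its 11.3 in Atf4AKO cold replicate 1 lay below the 12.2 of Atf4WT cold replicate 2. Over these 15 genes, the excess of Atf4WT cold replicate 0 relative to Atf4WT RT replicate 2 was 0.216 to 0.376 (median 0.286), and that of Atf4AKO cold replicate 1 was 0.0108 to 0.0829 (median 0.0311).

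**Figure D3:**
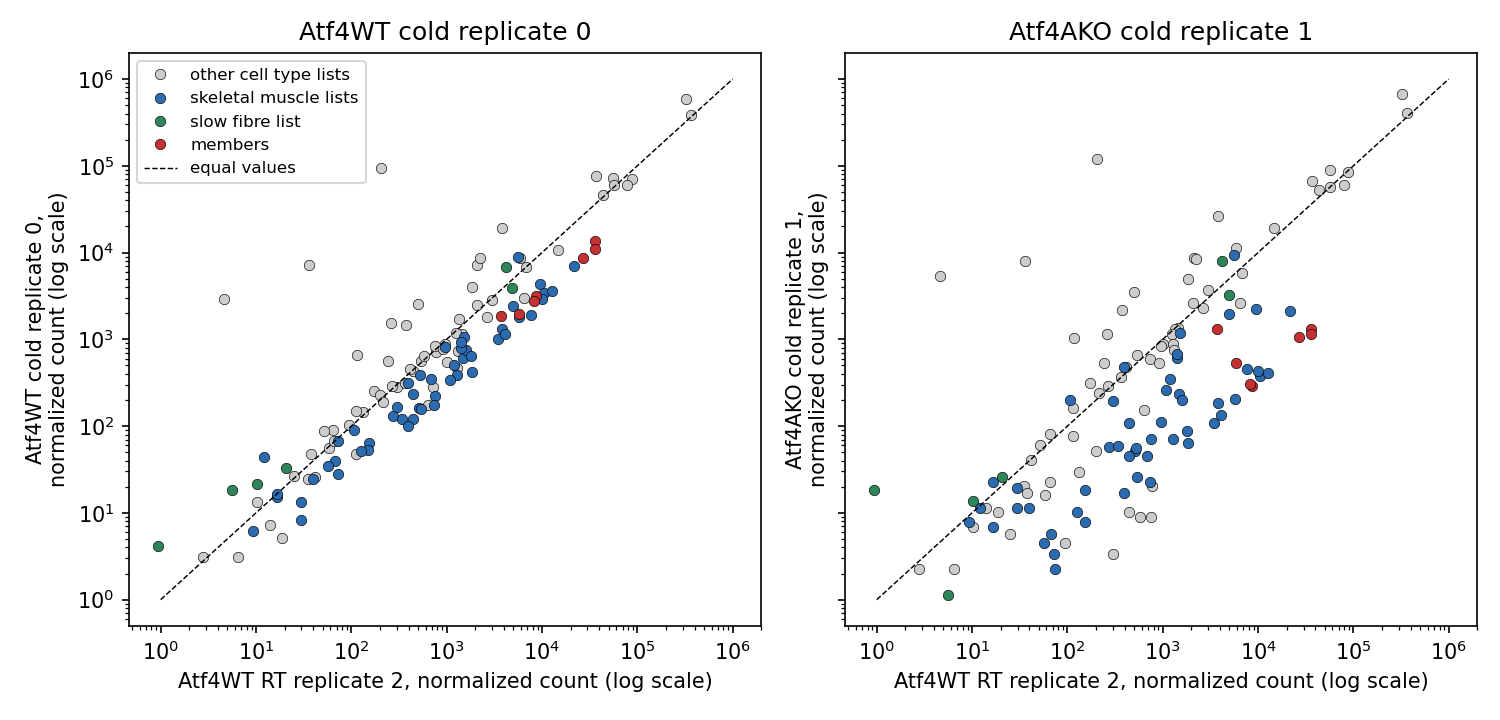
Normalized counts (log scales) of listed genes in Atf4WT cold replicate 0 (left) and Atf4AKO cold replicate 1 (right) against Atf4WT RT replicate 2, with the 7 genes (members) in red, the slow fibre list in green, the other skeletal muscle lists in blue and other cell type lists in gray. The dashed line marks equal values, and the red points of the members lie below it, at 0.302 to 0.498 of the level on the left and 0.0319 to 0.351 on the right.

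Skeletal muscle lists outside the 8 genes held 97 genes, of which 57 were listed and 55 passed the filter. The deposited values list a gene when it had at least 1 read in every library, so the 40 unlisted genes, which include Myh2, Myh4, Myh7, Tcap, Pvalb, Myod1 and Myog, were not analysed here. With the 7 genes included, the listed muscle genes made up 1.03% (95% Wilson interval 1.02% to 1.03%) of the counts on listed genes in Atf4WT RT replicate 2. They made up 0.375% (0.373% to 0.378%) in Atf4WT cold replicate 0 and 0.139% (0.138% to 0.140%) in Atf4AKO cold replicate 1. In the other libraries the share was 0.101% (0.0998% to 0.102%) to 0.122% (0.120% to 0.123%), carried by genes such as Gys1 and Atp2a2 that adipose tissue also expresses.

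The lists of contractile and calcium genes followed the 3 libraries in summed level. The 9 listed genes of the fast thin filament summed to 62730, 19417 and 3821 normalized counts in the 3 high libraries, in the order given above, and to 1831 to 2470 elsewhere. The 11 genes of calcium release and uptake summed to 12562, 4172 and 1228, against 576 to 932. The 5 genes of the thick filament, chosen as fast fibre genes although Mybpc1 is the slow form of myosin binding protein C, summed to 11460, 5407 and 2970, against 1657 to 2314, and Myl1, an essential light chain, gave most of that sum with 1271 to 1806 even in the 9 others. The 12 genes of the Z-disc and costamere, which anchor the filaments to each other and to the membrane, summed to 8693, 4597 and 1817, while the others reached 2011. The 10 genes of muscle energy metabolism summed to 26721, 16716 and 13290, and Atf4AKO cold replicate 2 had 13542.

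Myosin heavy chain genes differed from each other. Myh1, the heavy chain of fast IIx fibres, was at 72.3 in Atf4WT RT replicate 2 and 27.7 in Atf4WT cold replicate 0, its 2 highest values. In Atf4AKO cold replicate 1 it was at 3.40, below the 4.64 to 13.2 of the 9 others. Myh7b, a slow type heavy chain, was at 0.927, 4.11 and 18.1 in the 3 high libraries and at 1.99 to 49.9 elsewhere. The 6 listed slow fibre genes summed to 9106 to 12819, and Atf4WT RT replicate 2 had the lowest sum. Atp2a2 (4170 to 9335) and Tpm3 (3241 to 4977) were abundant in every library and gave most of these sums. Myl3, Tnnt1, Tnnc1 and Myh7b were at most 49.9, so the sums say little about slow fibres. Tnnt1, the slow troponin T, was at 5.56, 18.5 and 1.13 in the 3 high libraries and at 5.28 to 17.0 elsewhere. Mb, myoglobin of oxidative fibres, was at 29.7, 13.4 and 19.3, against 5.31 to 20.4. The 4 listed genes of the neuromuscular junction summed to 369 in Atf4WT RT replicate 2 and to 157 to 261 elsewhere.

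Lists of other cell types were not highest in all 3 high libraries. The 5 listed cardiac muscle genes summed to 236, 291 and 347 in the 3 high libraries and to 164 to 338 elsewhere. Their most abundant gene, Myl4, an atrial light chain, ran from 112 to 312, Tnni3, cardiac troponin I, from 15.4 to 88.5, and Myh6, Tnnt2, Actc1 and Mybpc3 were not listed. The 15 genes of smooth muscle and pericytes summed to 19840, 13585 and 14960, within or below the 14862 to 22796 of the other libraries. Rgs5 of pericytes, their most abundant gene, ran from 2344 to 6976 and Cspg4 from 2860 to 5607. The 9 Schwann cell genes ran from 10222 to 25524, with Pmp22, their most abundant gene, at 5329 to 12501. Skin and mammary epithelium, with Krt5, Krt14, Krt8, Krt18 and Epcam not listed, summed to 340 to 806, with Trp63 at 173 to 643 and Krt10 at 113 to 165.

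Fat cell genes were abundant in every library, as the label of the tissue requires. Fabp4, the fatty acid binding protein of adipocytes, ran from 314385 to 667137 normalized counts and Cfd, adipsin, from 258547 to 543199. Ucp1, the uncoupling protein of thermogenic fat, was at 439, 685 and 204 in Atf4WT RT and 1097, 441 and 298 in Atf4AKO RT. After cold exposure Ucp1 was at 94771, 73632 and 74684 in Atf4WT and 81033, 119558 and 90868 in Atf4AKO. Cidea, another thermogenic gene, ran from 3831 to 5281 at RT and from 13136 to 26134 after cold. Atf4WT RT replicate 2, the library with the highest muscle score, had the lowest Ucp1 of the 12, and its 10 white adipocyte genes summed to 1070080, the second lowest in a range of 1008610 to 1510860.

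The 12 B and T lymphocyte genes summed to 320, 249 and 3454 in Atf4WT RT, 666, 316 and 860 in Atf4AKO RT, 3586, 10390 and 14906 in Atf4WT cold and 621, 198 and 256 in Atf4AKO cold. Atf4WT RT replicate 2 thus carried both muscle and lymphocyte RNA, while Atf4AKO cold replicate 1 carried muscle RNA with the lowest lymphocyte sum. Cd79a, a B cell receptor subunit and the most abundant of the list, was at 772 in Atf4WT RT replicate 2 and at 23.0 and 13.5 in the other Atf4WT RT libraries. The inguinal pad contains a lymph node, and its part in these values was not tested.

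**Figure D4:**
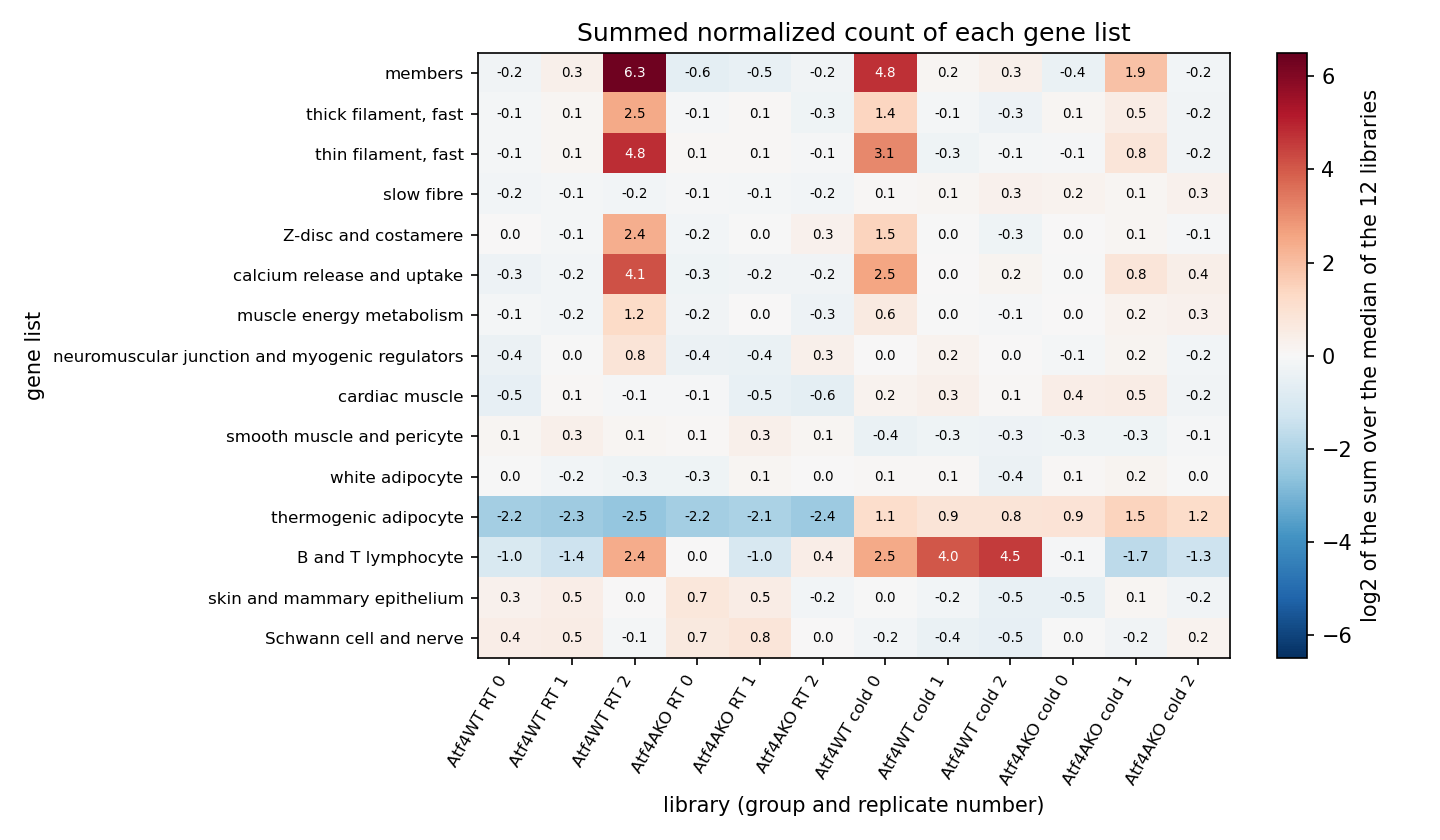
Log2 of the summed normalized count of each gene list in each library over the median of the 12 libraries (color and printed value). The 7 genes (members) and the thick and thin filament lists are highest in Atf4WT RT replicate 2, Atf4WT cold replicate 0 and Atf4AKO cold replicate 1. The cardiac list is also highest in Atf4AKO cold replicate 1. The slow fibre, cardiac, smooth muscle and white adipocyte lists are not highest in all 3 of these libraries. The slow fibre sums rest mostly on Atp2a2 and Tpm3, which were abundant in every library.

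Atf4AKO was compared with Atf4WT at RT to find genes that differ without Atf4 in adipocytes before cold. In this comparison 47 of the 55 muscle list genes lay below 0, with a median log2 difference of -0.98 against 0.01 over all 13404 genes tested. Some of the 55 passed the filter of 10 only through high libraries. Actn3 and Sgca, for example, were at most 8.44 and 9.50 in the 9 others. A lower value in Atf4AKO RT, which holds no high library, was partly set by that filter. The sign counts and medians of the muscle list genes are therefore a description, here and below. A gene was called when it changed more than 1.5-fold with an unadjusted p under 0.05, the rule of the study, and limma called none of the 55. With limma, 0 of the 55 had an unadjusted p under 0.05. Of all genes, 0.179% were called higher and 0.283% lower, and 0.00746% with an adjusted p under 0.05. The fast thin filament genes had a median of -2.09 and the calcium handling genes of -1.10, while the slow fibre genes had 0.07.

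Count models gave other numbers for the same difference. edgeR called 28 of the 55 muscle list genes lower, against 0.858% of all genes. Like the values above, the counts of both models are a description, since genes kept by a high library are among the 55. DESeq2 called 14 lower, against 0.577% of all genes, and it gave no p to 21 of the 55, nor to 6 of the 7 genes described above, because of a count far from the rest. None of the 28 or the 14 had an adjusted p under 0.05. The median log2 difference was -1.92 with either count model, and with limma -1.49 or -1.5 without Atf4WT RT replicate 0 or 1. In these 2 fits limma called 6 and 5 of the 55 lower, against 87 and 51 of 13404 genes. Without Atf4WT RT replicate 2 the limma median was 0.02 and limma called 0 of the 55, against 0.231% higher and 0.209% lower of all genes. Without all 3 high libraries limma called 0 again, against 0.507% higher and 0.224% lower. With limma the lower median of the muscle genes of Atf4AKO at RT therefore rested on 1 Atf4WT library. The calls of the count models are given with all libraries only.

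Atf4AKO was compared with Atf4WT after cold exposure to find what adipocyte Atf4 changes in the cold response. Of the 55 muscle list genes 2 were lower and 0 higher by the rule of the study, against 6.04% lower and 0.358% higher of all genes, and 0 had an adjusted p under 0.05, against 0.0298%. Their median log2 difference was -0.41, against 0.05 over all genes. It was 0.21 without Atf4WT cold replicate 0, -0.91 or -0.77 without replicate 1 or 2 of that group, -0.92 with edgeR and -0.94 with DESeq2. Rapsn, which clusters acetylcholine receptors at the neuromuscular junction, was at 24.7, 24.3 and 21.7 in Atf4WT and 9.57, 11.3 and 9.67 in Atf4AKO. The log2 difference of Rapsn was -1.13 (SE 0.32, adjusted p = 0.138), lower in 3 of 3 libraries, and it was as large without the 3 high libraries (-1.17). Mybpc1, the slow myosin binding protein C named above, was at 67.8, 7.39 and 14.1 in Atf4WT and 3.19, 2.27 and 1.07 in Atf4AKO, a log2 difference of -2.75 (SE 1.15, adjusted p = 0.369). It passed the filter of 10 through Atf4WT RT replicate 2 (73.2) and Atf4WT cold replicate 0 (67.8), with 1.07 to 14.1 in the 9 low libraries. Since Atf4WT cold replicate 0 is part of this comparison, the difference and call of Mybpc1 are a description.

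The call of Mybpc1 was lost without Atf4WT cold replicate 0 (-1.88), Atf4WT cold replicate 2 (-2.98), Atf4AKO cold replicate 1 (-2.80) or Atf4AKO cold replicate 2 (-2.48). Without the 3 high libraries, 5 of the 55 were lower and 1 higher, against 6.62% lower and 2.27% higher of all genes. With all libraries the lymphocyte genes were lower in 12 of 12 by the rule of the study, against 6.04% of all genes. Their median log2 difference was -4.45 in the same comparison. For Cd79a it was -5.85 (SE 1.24, adjusted p = 0.0667). The part of muscle and lymphocyte RNA in the other differences was not tested.

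Cold was compared with RT in Atf4WT to describe the cold response of control fat. Of the 55 muscle list genes 2 were higher and 4 lower, against 10.9% and 10.3% of all genes, and 3 had an adjusted p under 0.05, against 17.6%. The median was -0.15, with 35 of 55 below 0, against 6670 of 13404 genes. With edgeR it was -0.85 and with DESeq2 -0.82, each with 45 of 55 below 0, against 6913 and 6662 of 13404 genes. The lymphocyte genes were higher in 12 of 12 by limma, each with an adjusted p under 0.05, with a median of 3.46. Atp2a2, which encodes the pump SERCA2 of slow fibres and of fat cells, was at 4868, 4742 and 4170 at RT and 6846, 6742 and 7878 after cold, a log2 difference of 0.64 (SE 0.10, adjusted p = 0.00119). Its fold change fell under 1.5 without Atf4WT RT replicate 2 (0.57) or Atf4WT cold replicate 2 (0.57). Casq2, the calsequestrin of slow and cardiac muscle, went from 29.4, 50 and 29.7 to 8.22, 13.7 and 9.42, a log2 difference of -1.69 (SE 0.33, adjusted p = 0.00351).

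Phkg1, the catalytic subunit of muscle phosphorylase kinase, was at 544, 484 and 1075 at RT in Atf4WT and 338, 230 and 230 after cold. It fell by 1.33 on the log2 scale (SE 0.27, adjusted p = 0.00424), and the highest values in both groups were those of the muscle-rich libraries. Tnnc1, slow troponin C, had a log2 difference of 0.90 (SE 0.36, adjusted p = 0.0768), Myom3 of the M-band -0.81 (SE 0.33, adjusted p = 0.0793) and Smyd1, a muscle methyltransferase, -2.02 (SE 0.86, adjusted p = 0.0938). The call was lost for Tnnc1 without Atf4WT RT replicate 0 (0.53) or Atf4WT cold replicate 0 (0.78). For Myom3 it was lost without Atf4WT RT replicate 0 (-0.79) or 1 (-0.67), or Atf4WT cold replicate 1 (-0.84) or 2 (-0.72). For Smyd1 it was lost without Atf4WT RT replicate 2 (-1.18), or Atf4WT cold replicate 1 (-1.76) or 2 (-1.32).

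The balance of this comparison turned with the library left out. Without Atf4WT RT replicate 2, 9 of the 55 muscle list genes were higher and 3 lower, with a median of 0.84, against 10.9% and 10.1% of all genes. Without Atf4WT cold replicate 0, 2 were higher and 8 lower, with a median of -0.90, against 1526 and 1564 of 13404 genes. Without replicate 1 or 2 of that group the median was 0.20 or 0.14. Without Atf4WT RT replicate 0 or 1 it was -0.71 or -0.79. Without all 3 high libraries, 6 were higher and 7 lower, with a median of 0.21, against 11.9% and 12.4% of all genes.

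Cold was compared with RT in Atf4AKO to describe the cold response without adipocyte Atf4. Of the 55 muscle list genes 3 were higher and 2 lower, against 8.3% and 8.92% of all genes, and 2 had an adjusted p under 0.05, against 13.3%. The median was 0.32, and 0.58, 0.01 and 0.27 without Atf4AKO cold replicate 0, 1 and 2. Atp2a2 went from 4928, 4927 and 4516 to 7456, 8004 and 9335, a log2 difference of 0.78 (SE 0.10, adjusted p = 0.000484). Phkg1 went from 539, 466 and 572 to 217, 260 and 198, a log2 difference of -1.23 (SE 0.27, adjusted p = 0.00736). No library of either group overlapped the other for these 2 genes.

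Of the other calls in Atf4AKO, Fbp2, a gluconeogenic enzyme of muscle, was at 46.5, 41.8 and 27.8 at RT and 45.7, 201 and 80.6 after cold (log2 difference 1.24, SE 0.53, adjusted p = 0.105). Its highest value was that of the muscle-rich library, and the difference without it was 0.67 and not called. The call of Fbp2 was also lost without Atf4AKO RT replicate 1 (1.31) or 2 (1.02), or Atf4AKO cold replicate 2 (1.32). Rapsn had a log2 difference of -0.91 (SE 0.32, adjusted p = 0.0590), and its call was lost without Atf4AKO RT replicate 2 (-0.78). Tnnc1 had a log2 difference of 0.80 (SE 0.36, adjusted p = 0.123). That call was lost without any single one of the Atf4AKO RT or Atf4WT cold libraries, Atf4WT RT replicate 1, or Atf4AKO cold replicate 0 or 1, with values of 0.58 to 0.83.

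Muscle list genes were counted after cold once the 3 high libraries were removed, as a description. In Atf4AKO 6 of the 55 were then higher and 5 lower, against 7.39% and 7.1% of all genes. The genes named next were chosen after their values were seen, in libraries that were themselves chosen by muscle level, so their values are a description with no p. In the low RT libraries Smyd1 was at 141 and 118 in Atf4WT and 126, 136 and 111 in Atf4AKO. In the low cold libraries it was at 39.1 and 20.7 in Atf4WT and 21.3 and 25.8 in Atf4AKO. Tnnc2, fast troponin C, was at 57.0 and 68.3 in Atf4WT and 38.0 to 48.8 in Atf4AKO at RT, and at 19.0 and 23.5, and 13.8 and 12.9, after cold.

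Other muscle list genes were higher in the low cold libraries than in the low RT libraries. Adssl1, an adenylosuccinate synthase of muscle, was at 177 and 130 in Atf4WT and 148, 177 and 161 in Atf4AKO at RT, and at 253 and 314, and 294 and 390, after cold. Srl, sarcalumenin of the sarcoplasmic reticulum, was at 203 and 225 in Atf4WT and 218, 270 and 186 in Atf4AKO at RT, and at 356 and 423, and 379 and 566, after cold. With all 12 libraries Adssl1 had a log2 difference of 0.18 in Atf4WT and 1.08 in Atf4AKO, Srl of 0.30 and 1.19 and Tnnc2 of -1.61 and 0.04, none of them called. Acta1, one of the genes chosen on these values, was lower in the cold libraries in the same set, as described above.

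The test of whether the cold response differs between genotypes called 1 of the 55 higher and 0 lower, against 0.463% and 4.17% of all genes, and 0 of the 55 and 0% of all genes had an adjusted p under 0.05. The median was 0.60, with edgeR 1.17 and with DESeq2 1.16. It was -0.41 without Atf4WT RT replicate 2, 1.15 or 1.07 without replicate 0 or 1 of that group, 1.15 without Atf4WT cold replicate 0 and 0.11 or 0.19 without Atf4WT cold replicate 1 or 2. The gene was Casq2, with a log2 difference of 1.06 (SE 0.47, adjusted p = 0.695). Its values in Atf4AKO were 27.0, 22.9 and 21.3 at RT and 14.9, 11.3 and 19.3 after cold. The call was lost without any single one of the Atf4AKO RT libraries, Atf4WT RT replicate 1, or replicate 0 or 2 of either cold group, with values of 0.81 to 1.15.

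**Figure D5:**
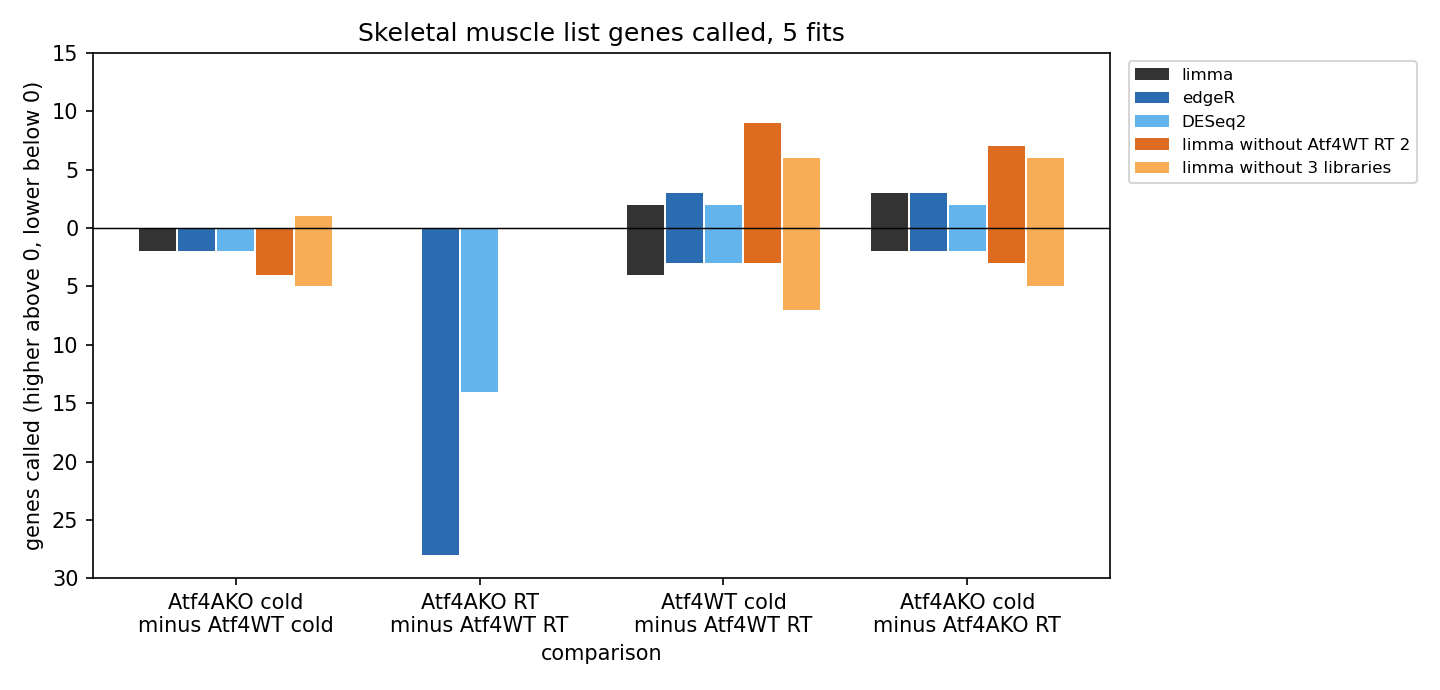
Number of the 55 skeletal muscle list genes called in each comparison (higher above 0, lower below 0) by limma, edgeR and DESeq2 with all libraries and by limma without Atf4WT RT replicate 2 or without the 3 libraries of highest muscle score. At RT edgeR called 28 lower and DESeq2 14, limma 0.

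Genes outside the muscle lists were counted with and without the muscle score as a covariate. For Atf4AKO against Atf4WT after cold 856 genes were called without the score and 886 with it, 818 of them in both (95.6% of the first and 92.3% of the second). At RT 62 and 53 were called, with 34 in both (54.8% and 64.2%). For cold against RT the counts were 2840 and 2829 in Atf4WT, with 2782 in both (98.0% and 98.3%), and 2304 and 2231 in Atf4AKO, with 2158 in both (93.7% and 96.7%). For the difference of the cold responses they were 620 and 582, with 568 in both (91.6% and 97.6%). Without the 3 high libraries, a choice made after seeing the data, the counts moved more: 1183 after cold, with 752 in both (87.9% and 63.6%), and 97 at RT, with 22 in both (35.5% and 22.7%). For cold against RT they were 3234 in Atf4WT, with 2435 in both (85.7% and 75.3%), and 1930 in Atf4AKO, with 1722 in both (74.7% and 89.2%). For the difference there were 1003, with 556 in both (89.7% and 55.4%). The shares at RT rest on far fewer calls than the others. With an adjusted p under 0.05, limma called 4 genes outside the muscle lists between the genotypes after cold, and 484 without Atf4WT cold replicate 0 or 144 without Atf4WT RT replicate 2. For the difference of the cold responses it called 0, and 64 without Atf4WT cold replicate 0. With all 12 libraries DESeq2 called 507 such genes between the genotypes after cold and limma with a replicate block 184. Atf4WT cold replicate 0 also had the lowest lymphocyte sum of its group, 3586 against 10390 and 14906. The part of muscle or lymphocyte RNA in these counts was not tested.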

How the data were processed

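Polyadenylated RNA of iWAT was sequenced in 12 libraries (strand-specific, DNBSEQ). The values deposited by the authors are a normalized signal, the reads of a gene divided by a DESeq2 size factor per library. The authors used SOAPnuke to filter, STAR to align to mm10, featureCounts for reads with a unique position and pyDESeq2 for scaling; tool versions and the strand setting were not given in the sources used here. No listed gene was without reads in any library. Dividing by the smallest value of a library returned whole reads (largest deviation 0.000313).

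limma 3.58.1 in R 4.3.3 (eBayes with a trend) was fitted to log2(normalized count + 1) of 13404 genes averaging 10 or more, with 4 group means; 755 genes fell under this filter. Calls needed more than a 1.5-fold change and an unadjusted p under 0.05, and adjusted p is over all genes tested. edgeR 4.0.16 and DESeq2 1.42.0 on recovered reads, other pseudocounts, filters and scalings, a replicate block, a muscle score covariate, and leaving out each library were alternatives, as was leaving out the 3 muscle-rich libraries, which was chosen after seeing the data. The fits were tested on simulated data. The members and lists were chosen with earlier results of these data known. Named are Atf4, the members, the 5 called list genes with the smallest p in each direction and comparison, the 15 genes most alike to the score, and up to 2 of the most abundant genes of every other list with Ucp1. Outside this rule values are given for Myh1, Myh7b, Tnnt1 and Mb, and for Adssl1 and Srl, which were chosen after their values were seen. Positions are from GENCODE M21 and promoters from RefSeq.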

Additional observations from a re-analysis of the deposited data

How the results depend on the processing

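Counting error limits the lowest values, such as 4.81 normalized counts of Atp2a1, and read counts of replicates varied beyond it (chi-square per degree of freedom 37.2 to 69.8). Of the 4 mean log2 differences of the members, 3 changed sign when 1 high library was left out. For genes named by the rule, 16 results were followed over 361 alternative values: 301 kept their call, 60 lost it and 0 reversed, and 5 results kept their call throughout. For cold in Atf4WT, Smyd1 lost its call in 7 of 23 settings, Myom3 in 5 of 23, Tnnc1 in 4 of 22 and Atp2a2 in 2 of 23. For cold in Atf4AKO, Tnnc1 lost it in 15 of 22, Fbp2 in 6 of 23 and Rapsn in 2 of 22. Between genotypes after cold, Mybpc1 lost it in 6 of 22 and Rapsn in 1 of 22. Casq2 lost it in 11 of 22 for the difference and Atf4 in 1 of 23 at RT. The losses named with the genes above are for libraries left out. Where no cause is given, the cause was not tested.

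Muscle list genes called numbered 2 for Atf4AKO against Atf4WT after cold, 0 at RT, 6 for cold in Atf4WT, 5 for cold in Atf4AKO and 1 for the difference of cold responses. A pseudocount of 5 gave 1 after cold. A mean of at least 50, which tests fewer genes, gave 0 after cold, 3 for cold in Atf4AKO and 0 for the difference. At RT edgeR gave 28 and DESeq2 14; for the difference DESeq2 gave 0. The labels do not say whether equal replicate numbers mark paired samples. Group means were subtracted from each gene, and these deviations were correlated between libraries of different groups. Pairs of equal number ran from -0.189 to 0.389, with 8 of 18 at 0.179 or more, among them all 6 of number 1. Pairs of unequal number ran from -0.475 to 0.312. A replicate block gave 1 at RT, 5 for cold in Atf4WT and 4 for cold in Atf4AKO. It gave 2 after cold and 1 for the difference. In this paragraph a count with no count over all genes describes the fit and is not a result about muscle genes. With the muscle score as covariate the counts were 4, 1, 12, 11 and 3 in the order above. They are a description, since the score is made of muscle genes and takes up the spread that the counted genes share with it. Of all 13404 genes that fit called 892, 55, 2844, 2245 and 585, against 858, 62, 2846, 2309 and 621 in the main fit. Without the 3 high libraries, a choice made after seeing the data, the muscle list counts were 6, 0, 13, 11 and 7. They only describe the libraries left, since these were chosen by the level of muscle genes. With all libraries an adjusted p under 0.05 gave 0, 0, 3, 2 and 0. Leaving out 1 library gave 1 to 4 after cold (4 without Atf4WT RT replicate 2; 1 without Atf4WT cold replicate 2 or Atf4AKO cold replicate 1 or 2), 0 to 6 at RT (6 without Atf4WT RT replicate 0, 5 without replicate 1; 1 without Atf4AKO RT replicate 2, Atf4WT cold replicate 0 or Atf4AKO cold replicate 1), 3 to 12 for cold in Atf4WT (12 without Atf4WT RT replicate 2, 10 without Atf4WT cold replicate 0, 3 without Atf4WT cold replicate 2), 3 to 10 for cold in Atf4AKO (10 without Atf4WT RT replicate 2, 3 without Atf4AKO RT replicate 1 or 2) and 0 to 3 for the difference (3 without Atf4WT RT replicate 2; 0 without Atf4WT RT replicate 1, any Atf4AKO RT library, or replicate 2 of either cold group). Atf4WT RT replicate 2 changes comparisons that do not hold it because the fit pools the spread of all groups. Of all 13404 genes, 129 were called at RT without Atf4WT RT replicate 0 and 71 without replicate 1. Without Atf4WT RT replicate 2, 868 of all genes were called after cold, 2818 for cold in Atf4WT, 2288 for cold in Atf4AKO and 706 for the difference. Without Atf4WT cold replicate 0, 3090 of all genes were called for cold in Atf4WT.

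Genes called outside the muscle lists numbered 856 after cold, 62 at RT and 620 for the difference. At RT a mean of at least 50 gave 29 and edgeR 103. Without the 3 high libraries there were 97 at RT and 1003 for the difference. An adjusted p under 0.05 gave 4, 1 and 0. By that rule DESeq2 gave 507, 5 and 96, edgeR 3, 1 and 0, the replicate block 184, 3 and 0, and the fit without the 3 high libraries 474, 3 and 270. Without Atf4WT cold replicate 0 it gave 484, 1 and 64, without Atf4WT RT replicate 2 144, 2 and 0, and without any other single library 2 to 5 after cold, 1 to 3 at RT and 0 for the difference. Leaving out 1 library gave 47 to 122 at RT (122 without Atf4WT RT replicate 0, 116 without Atf4AKO RT replicate 2, 107 without Atf4AKO RT replicate 0) and 409 to 867 for the difference (409 without Atf4WT cold replicate 2).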
